A study of Homo sapiens with 6 samples.

Results

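The abundant noncoding RNAs made by RNA polymerase III were followed across 6 RNA-seq libraries of SH-SY5Y, a human neuroblastoma line. They were sought by symbol: RPPH1, RMRP, RN7SL1, RN7SL2, RN7SL3 and RN7SK. Of these 6 symbols, 3 had a row among the 27961 gene rows, namely RPPH1, RMRP and RN7SL3, and all 3 passed the filter on low counts. RN7SL1, RN7SL2 and RN7SK are not analysed here as genes. A row for the repeat family 7SK (7SK:RNA:RNA in the tables) is given beside the members, and the share of its counts that comes from the RN7SK gene cannot be told apart from that of other 7SK copies.

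Each group held 2 libraries. The TARDBP group carried 1 hairpin, TRCN0000016038, against TARDBP, the gene of the RNA-binding protein TDP-43. The first control group (control hairpin 1) carried SHC007 and the second (control hairpin 2) carried SHC016. All 3 groups received their hairpin by lentivirus, spun onto the cells with polybrene, and were selected with 2 µg/mL puromycin, begun 48 hours after infection and kept up for 3 days. Total RNA was depleted of ribosomal RNA and made into strand-specific libraries. With a single TARDBP hairpin, loss of TARDBP and any other action of that hairpin cannot be told apart. No label states separate cultures for the libraries of a hairpin, so p-values reflect how far these particular libraries differ, a spread that may be technical.

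RPPH1 is the RNA of RNase P, the enzyme that removes the 5′ leader of precursor tRNAs. RMRP is the RNA of RNase MRP, a related enzyme that shares most of its proteins with RNase P and cuts the precursor of ribosomal RNA. The RN7SL genes encode 7SL, the scaffold of the signal recognition particle, which brings ribosomes making secreted and membrane proteins to the endoplasmic reticulum. 7SK RNA holds the kinase P-TEFb in an inactive particle and so limits elongation by RNA polymerase II. RPPH1, RMRP and 7SK have promoters upstream of the transcript that use the SNAPc complex, whereas 7SL genes also need sequences inside the transcript.

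The transcripts of RPPH1, RMRP and RN7SK are shown because likeness between transcripts decides which counts can be kept apart. The sequences are those of GENCODE release 29, written 5′ to 3′ as DNA. RPPH1 and the RN7SL genes lie on chromosome 14, RMRP on chromosome 9 and RN7SK on chromosome 6. In RPPH1 and RMRP, capitals mark the longest run found in both, which spans bases 146 to 154 of RPPH1 and 243 to 251 of RMRP. Of RPPH1 and RN7SK the first 300 bases are given.
RPPH1: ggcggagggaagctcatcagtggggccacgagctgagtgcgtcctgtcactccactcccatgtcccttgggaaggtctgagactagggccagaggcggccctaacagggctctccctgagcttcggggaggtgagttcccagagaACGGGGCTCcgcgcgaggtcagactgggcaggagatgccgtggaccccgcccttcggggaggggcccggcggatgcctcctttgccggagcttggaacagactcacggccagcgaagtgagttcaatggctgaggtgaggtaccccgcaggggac
RMRP: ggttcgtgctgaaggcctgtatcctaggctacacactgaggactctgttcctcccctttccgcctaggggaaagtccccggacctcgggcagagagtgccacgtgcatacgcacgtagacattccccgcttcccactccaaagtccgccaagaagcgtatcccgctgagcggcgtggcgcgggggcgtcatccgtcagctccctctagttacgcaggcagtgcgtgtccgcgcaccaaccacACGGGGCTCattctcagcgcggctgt
RN7SK: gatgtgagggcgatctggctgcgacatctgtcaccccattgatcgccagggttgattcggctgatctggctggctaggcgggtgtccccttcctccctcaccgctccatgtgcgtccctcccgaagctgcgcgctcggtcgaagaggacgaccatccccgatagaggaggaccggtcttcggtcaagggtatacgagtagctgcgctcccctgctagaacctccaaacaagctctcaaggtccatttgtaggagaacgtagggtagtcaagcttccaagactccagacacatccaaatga

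RPPH1 is 333 bases long and RMRP 268, and they were identical at 52.4% of aligned positions, close to the 51.4 to 53.2% between RMRP and the RN7SL RNAs. RN7SL3 is 299 bases long and differed from RN7SL1 at 7 of 299 aligned positions (97.7% identical) and from RN7SL2 at 12 of 300 (96.0%). The counting of reads that match several genes is not stated in the material used here. The RN7SL3 row may therefore hold reads of the other 7SL genes, and its values below are those of the row. All 4 RNAs with values are GC-rich, at 64.6% GC for RPPH1, 63.1% for RMRP, 62.2% for RN7SL3 and 58.2% for RN7SK.

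The libraries held 18605745 to 21698339 counts, so counting error on these RNAs is small. Levels are given as CPM, counts in proportion to each library's total after scaling by edgeR's TMM factors. The targeted gene, TARDBP, stood at 18.9 and 24.0 CPM in the TARDBP hairpin libraries, against 80.9 and 72.4 CPM with control hairpin 1 and 92.7 and 81.5 CPM with control hairpin 2. Its log2 fold change against the mean of both control hairpins was -1.93 ± 0.13 (SE; adjusted p = 1.68e-05, edgeR quasi-likelihood test). Of 8 noradrenergic neuroblastoma markers, 7 were above 1 CPM in every library, with a summed level of 989 to 1114 CPM in the TARDBP hairpin libraries and 1352 to 1852 CPM in the control libraries. The immune and endothelial marker lists summed to at most 0.930 CPM in any library. Epithelial markers summed to 3.62 to 7.01 CPM in the TARDBP hairpin libraries and 0.441 to 1.17 CPM in the control libraries, and fibroblast markers to 45.6 to 55.1 CPM and 82.9 to 192 CPM in the same order. Mitochondrial ribosomal RNA (the rows RNR1 and RNR2, looked up after values were seen) took 11.9 and 12.4% of counts in the TARDBP hairpin libraries, against 10.8 and 7.32% with control hairpin 1, and in control hairpin 2 libraries 6.18 and 6.35%. The part of these differences in the results below was not tested.

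RPPH1 was higher with the TARDBP hairpin. It stood at 20670 and 12220 CPM in the TARDBP hairpin libraries, against 8456 and 10910 CPM with control hairpin 1 and 7389 and 11450 CPM with control hairpin 2. Both TARDBP hairpin libraries lay above all 4 control libraries, but replicate 2 exceeded the highest control library only narrowly. The mean was 16440 ± 5977 CPM with the TARDBP hairpin, 9681 ± 1732 CPM with control hairpin 1 and 9420 ± 2872 CPM with control hairpin 2 (SD, n = 2 each). The fit gave a 1.72-fold difference from the mean of both controls, a log2 fold change of 0.78 ± 0.23 (SE; 95% interval 0.26 to 1.31; adjusted p = 0.0213, edgeR). RPPH1 took 1.96 and 1.22% of all counts in the TARDBP hairpin libraries, against 0.868 and 1.12% with control hairpin 1, and in control hairpin 2 libraries 0.754 and 1.12%. In bulk RNA, more RPPH1 per cell and more cells that make it cannot be told apart.

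The RPPH1 call rested on TARDBP hairpin replicate 1. Without that library the log2 fold change was 0.35 (adjusted p = 0.273, edgeR), and without control hairpin 1 replicate 1 it was 0.69 (adjusted p = 0.0580). The call was also lost with DESeq2's test (0.76, adjusted p = 0.0908) and, in edgeR, with the 4 control libraries pooled as 1 group (0.78, adjusted p = 0.0965) or with repeat families left out (0.81, adjusted p = 0.0607). Against control hairpin 1 alone the log2 fold change was 0.76 ± 0.27 and missed the threshold (SE; adjusted p = 0.0508), and against control hairpin 2 alone it was 0.80 ± 0.27 and passed it (adjusted p = 0.0374). The last call was lost without TARDBP hairpin replicate 1 (0.37, adjusted p = 0.281) and without control hairpin 2 replicate 1 (0.52, adjusted p = 0.187). It was also lost with DESeq2's test (0.78, adjusted p = 0.132) and with repeat families left out (0.85, adjusted p = 0.0924).

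RMRP had almost the same mean with each hairpin. Its level was 6666 and 4817 CPM in the TARDBP hairpin libraries, against 4800 and 6641 CPM with control hairpin 1 and 4744 and 6887 CPM with control hairpin 2. The 3 groups overlapped over nearly their whole range, and in each the 2 libraries were farther apart than any 2 group means. Means were 5742 ± 1308 CPM with the TARDBP hairpin, 5721 ± 1302 CPM with control hairpin 1 and 5815 ± 1515 CPM with control hairpin 2 (SD, n = 2 each). The log2 fold change against the mean of both controls was -0.01 ± 0.19 (SE; 95% interval -0.45 to 0.44; adjusted p = 0.980, edgeR). A difference within that interval was not detectable with this spread.

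RN7SL3 was ordered by hairpin in another way. It stood at 23830 and 14550 CPM in the TARDBP hairpin libraries, against 11060 and 16430 CPM with control hairpin 1 and 16510 and 24930 CPM with control hairpin 2. Both libraries of control hairpin 2 lay above both of control hairpin 1, by a narrow margin at their nearest, and the TARDBP hairpin libraries overlapped both control groups. Means were 19190 ± 6559 CPM with the TARDBP hairpin, 13740 ± 3798 CPM with control hairpin 1 and 20720 ± 5955 CPM with control hairpin 2 (SD, n = 2 each). Against the mean of both controls the log2 fold change was 0.19 ± 0.24 (SE; 95% interval -0.36 to 0.74; adjusted p = 0.551, edgeR). It was 0.48 against control hairpin 1 (95% interval -0.16 to 1.12; adjusted p = 0.200) and -0.11 against control hairpin 2 (-0.75 to 0.53; adjusted p = 0.764). Between control hairpin 2 and control hairpin 1 it was 0.59 (-0.05 to 1.23; adjusted p = 0.121).

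**Figure D1:**
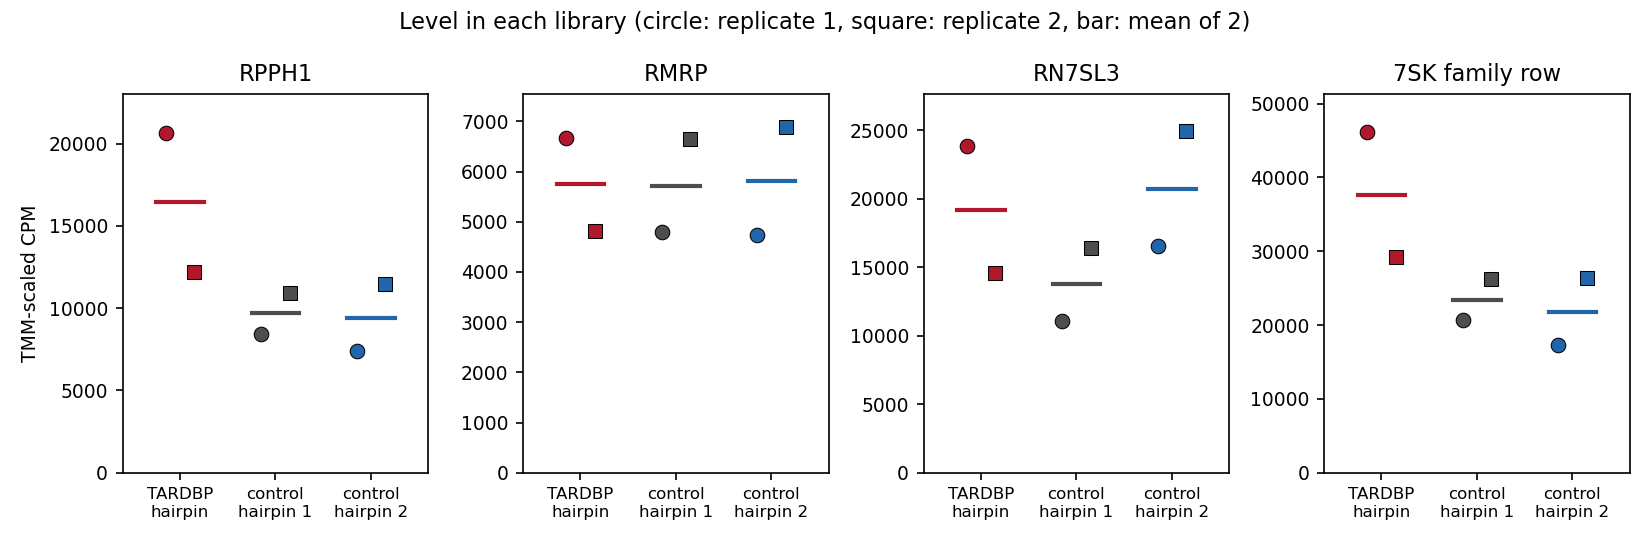
TMM-scaled CPM on a linear axis from 0 of RPPH1, RMRP, RN7SL3 and the 7SK repeat family in each of the 6 libraries. Circles are replicate 1, squares replicate 2 and bars the mean of 2 libraries: RPPH1 and 7SK have both TARDBP hairpin points above all control points, RMRP has level bars, and in every panel the higher library is replicate 1 with the TARDBP hairpin and replicate 2 with each control hairpin.

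The 7SK repeat family followed RPPH1. It stood at 46120 and 29200 CPM in the TARDBP hairpin libraries, against 20690 and 26200 CPM with control hairpin 1 and 17330 and 26320 CPM with control hairpin 2. Both TARDBP hairpin libraries again lay above all 4 control libraries. Means were 37660 ± 11970 CPM with the TARDBP hairpin, 23440 ± 3892 CPM with control hairpin 1 and 21820 ± 6359 CPM with control hairpin 2 (SD, n = 2 each). The family rose 1.67-fold against the mean of both controls, a log2 fold change of 0.74 ± 0.21 (SE; 95% interval 0.25 to 1.22; adjusted p = 0.0200, edgeR). That call too was lost without TARDBP hairpin replicate 1 (0.36, adjusted p = 0.249), without control hairpin 1 replicate 1 (0.65, adjusted p = 0.0544), with DESeq2's test (0.71, adjusted p = 0.0835) and, in edgeR, with pooled controls (0.73, adjusted p = 0.0980). The family missed the threshold against control hairpin 1 alone (0.68, adjusted p = 0.0564) and passed it against control hairpin 2 alone (0.79, adjusted p = 0.0298).

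Such calls were common in these libraries. Against the mean of both controls, 1 of 3 members was called, higher (RPPH1), while 48.2% of the 17163 genes and repeat families tested were called, 23.9% higher and 24.3% lower. With control hairpin 1 as the comparison, edgeR and DESeq2 each called 0 of 3 members, edgeR had RPPH1 alone below 0.05 without adjustment, and the background was 42.9%, with 21.1% higher and 21.8% lower. Against control hairpin 2, 1 of 3 was called, higher (RPPH1), against a background of 50.2%, with 24% higher and 26.2% lower. Between control hairpin 2 and control hairpin 1, edgeR and DESeq2 each called 0 of 3, none of the 3 was below 0.05 without adjustment, and the background was 43.2%, with 22.8% higher and 20.4% lower. Both TARDBP hairpin libraries lay above all 4 control libraries for 1 of 3 members, against 23.3% of all features tested, and below them for 0 of 3, against 22.8%.

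**Figure D2:**
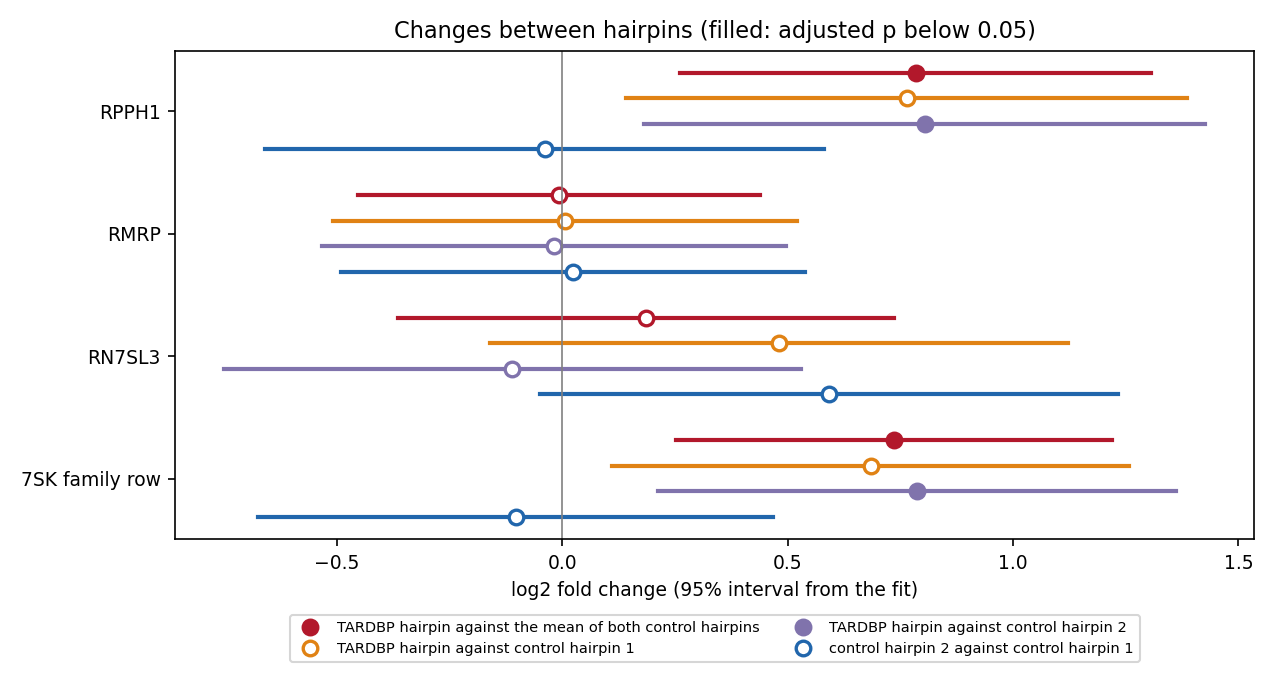
Log2 fold changes with 95% intervals from the edgeR fit, by member and comparison, with filled points at an adjusted p below 0.05. RPPH1 and 7SK lie near 0.8 and 0.7 in all 3 comparisons with the TARDBP hairpin and near 0 between the control hairpins, RMRP lies near 0 throughout, and RN7SL3 has its largest value, 0.59, between the control hairpins.

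Levels of different RNAs were compared per base of transcript, taking the RN7SK length for the 7SK family. With the TARDBP hairpin the 7SK family had 115 ± 36.5 CPM per base, RN7SL3 64.2 ± 21.9, RPPH1 49.4 ± 18.0 and RMRP 21.4 ± 4.88 (SD, n = 2). The libraries of the 7SK family (89.0 and 141 CPM per base) lay above those of RN7SL3 (48.7 and 79.7), while RN7SL3 and RPPH1 (36.7 and 62.1) overlapped. With control hairpin 2, RN7SL3 at 69.3 ± 19.9 CPM per base stood beside 7SK at 66.5 ± 19.4, and the 2 overlapped almost entirely. With control hairpin 1, 7SK at 71.5 ± 11.9 CPM per base was above RN7SL3 at 46.0 ± 12.7, RPPH1 at 29.1 ± 5.2 and RMRP at 21.4 ± 4.86. These RNAs were among the most counted features, with RN7SL3 at places 3 to 5 of each library, RPPH1 at places 5 to 7 and RMRP at places 10 to 19.

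The spread between replicates was wide, and it had the same order for every member. Replicate 1 was the higher library with the TARDBP hairpin, and replicate 2 with each control hairpin. RPPH1 differed 1.69-fold between its TARDBP hairpin libraries, 1.29-fold with control hairpin 1 and 1.55-fold with control hairpin 2. Gaps at least as wide were seen for 4.97, 20.3 and 6.48% of the features tested in those groups. RMRP differed 1.38-fold, 1.38-fold and 1.45-fold between replicates in the same groups, and RN7SL3 1.64-fold, 1.49-fold and 1.51-fold. In the fit, the biological coefficient of variation was 19.6% for RPPH1, 16.7% for RMRP and 20.2% for RN7SL3, where the median of all features was 10.1%. It was lower than that of RPPH1 for 93.8% of features.

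**Figure D3:**
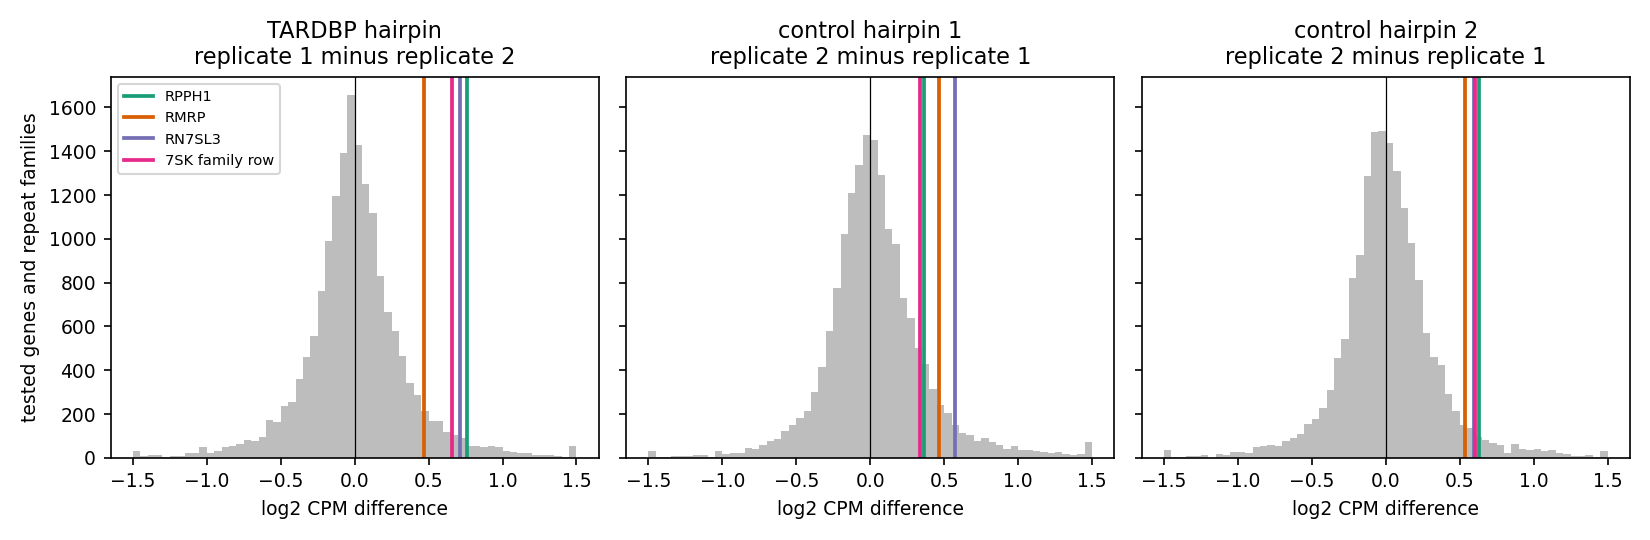
Histograms of the log2 CPM difference between the 2 libraries of each hairpin for all 17163 features tested, with values beyond 1.5 placed in the end bins and coloured lines for the members. All lines lie to the right of 0, at 0.34 to 0.76, while the median absolute gap of all features was 0.16 to 0.17.

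Many other RNAs had the same order. Among other features whose log2 CPM averaged 3 or more, 24.8% had the members' order of replicates in all 3 groups (2797 of 11267). In 1.28%, the gap in every group was at least as wide as the smallest member gap of any group. That cutoff was log2 0.367, the gap of RPPH1 with control hairpin 1, and it was used for all 3 groups. Of RNAs at that level in the small noncoding classes of RefSeq (members left out), 17 of 19 had the order, and 8 had gaps that wide. With fainter ones included, 80 of 189 had the order (42.3%), against 22.6% of all other features tested, and 29 had gaps that wide. At the higher level, the class that RefSeq names ncRNA, which holds the small Cajal body RNAs, had the order in 11 of 11. Histone genes (HIST symbols, grouped after values were seen), whose main transcripts lack a poly(A) tail, had it there in 55 of 56, with 44 at gaps that wide. Among protein-coding genes at that level, it was seen in 65.9% of those whose longest transcript has up to 1000 bases (166 of 252). Above 5000 bases it was seen in 12.5% (385 of 3091). Transcript length and GC content moved together, with a median GC of 54.4% in the shortest bin and 44.2% in the longest. The part of length, GC content or library making in the members' spread was not tested.

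Ratios of counts within 1 library do not depend on its total or scaling factor, and were added after the levels had been seen. The ratio of 7SK to RPPH1 was 2.23 and 2.39 in the TARDBP hairpin libraries, 2.45 and 2.40 with control hairpin 1, and in control hairpin 2 libraries 2.35 and 2.30. It therefore varied far less than either RNA. The ratio of RPPH1 to RMRP was 3.10 and 2.54 in the TARDBP hairpin libraries, against 1.76 and 1.64 with control hairpin 1, and in control hairpin 2 libraries 1.56 and 1.66. All 4 control libraries were thus close together, and both TARDBP hairpin libraries stood clear of them, with replicate 2 as well as replicate 1 apart. The difference was 1.70-fold (log2 0.76; exact two-sided permutation p = 0.133, the smallest that 2 libraries against 4 can give; 0.2 after adjustment over 6 ratios), and without TARDBP hairpin replicate 1 it was 0.62 on the log2 scale.

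Ratios with RN7SL3 differed between the control hairpins. The level of RN7SL3 itself was not called between them (adjusted p = 0.121, edgeR), where 43.2% of features were. The ratio of RPPH1 to RN7SL3 was 0.868 and 0.840 in the TARDBP hairpin libraries, against 0.765 and 0.664 with control hairpin 1, and in control hairpin 2 libraries 0.448 and 0.459. The 2 control groups did not overlap, and their log2 difference (control hairpin 2 minus control hairpin 1) was -0.65. How often ratios of other features separate the control groups was not worked out. The ratio of RN7SL3 to RMRP was 3.57 and 3.02 in the TARDBP hairpin libraries, against 2.30 and 2.47 with control hairpin 1, and in control hairpin 2 libraries 3.48 and 3.62. Control hairpin 1 was the low group here, the TARDBP hairpin and control hairpin 2 overlapped, and the log2 difference from both controls was 0.17 (exact two-sided permutation p = 0.667). With 2 libraries against 2, the control groups could give no permutation p below 0.333.

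**Figure D4:**
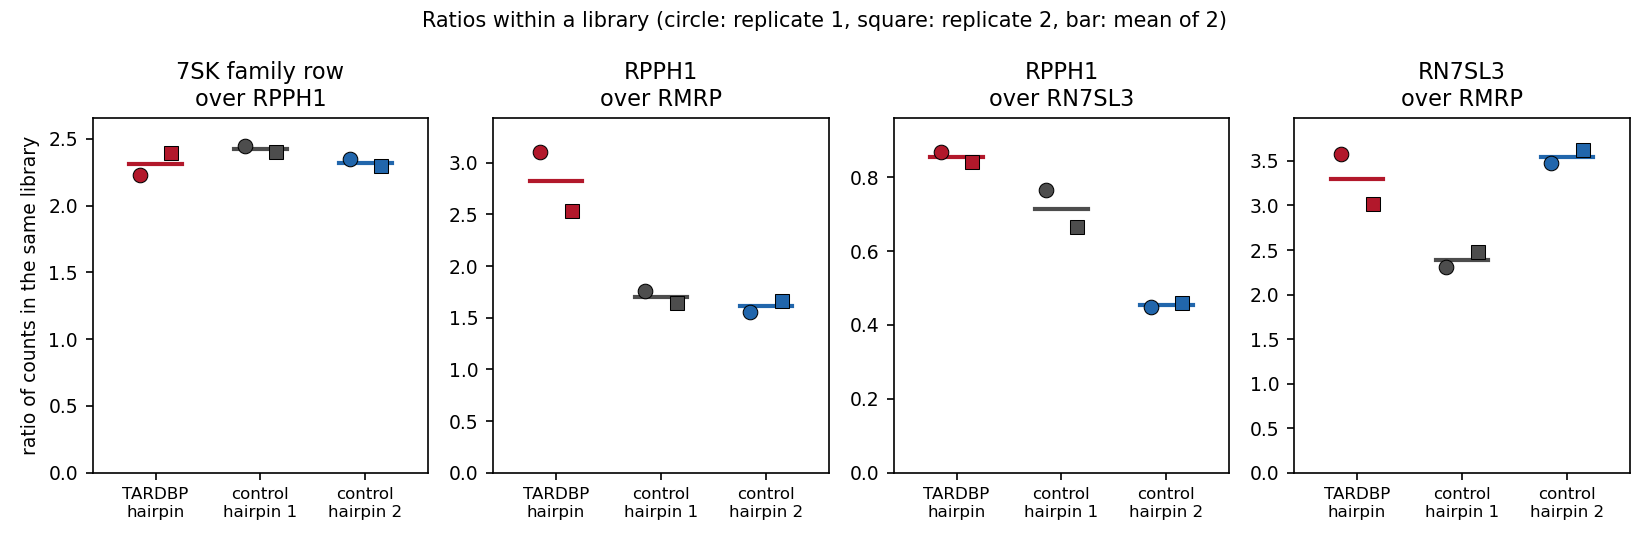
Ratios of counts within each library on linear axes from 0, with circles for replicate 1, squares for replicate 2 and bars for the mean of 2. The ratio of 7SK to RPPH1 is nearly level at 2.23 to 2.45, the ratio of RPPH1 to RMRP is higher in both TARDBP hairpin libraries, and both ratios with RN7SL3 separate the 2 control hairpins.

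The features with patterns most like the members were ranked by the root mean square difference of centred log2 CPM over the 6 libraries, among the 11271 features whose log2 CPM averaged 3 or more. For RPPH1 the nearest was the 7SK family at 0.044, followed by SNORA63 at 0.086, a small nucleolar RNA, and SCARNA12 at 0.100, a small Cajal body RNA. RMRP lay nearest to SLC25A1 (0.079), the mitochondrial citrate carrier, then SAMD1 (0.082) and the ribosomal protein gene RPS20 (0.087). RN7SL3 lay nearest to the ribosomal protein gene RPS28 (0.086) and to NDUFA3 (0.092) and NDUFB7 (0.098), subunits of mitochondrial complex I. No member was among the 3 features nearest to another member, which were picked for their small distances. The distance was 0.372 between RPPH1 and RMRP, 0.389 between RPPH1 and RN7SL3 and 0.260 between RMRP and RN7SL3. The place of these distances among all 11271 features was not worked out.

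Among genes of the proteins that bind these RNAs, counts are set against all features, of which 23.9% rose and 24.3% fell against the mean of both controls. Of 11 RNase P and RNase MRP protein genes tested, 1 rose and 2 fell in that comparison, and the median log2 fold change was 0.06, where that of all features was 0.04. RPP25L, the gene of a paralog of the subunit RPP25, rose to 8.07 and 8.62 CPM in the TARDBP hairpin libraries, against 3.36 and 4.16 CPM with control hairpin 1 and 7.58 and 7.02 CPM with control hairpin 2 (log2 0.67, adjusted p = 0.00527). Its separation was thus from control hairpin 1 (log2 1.15) far more than from control hairpin 2 (0.19, adjusted p = 0.348). POP1, the largest protein of both enzymes, fell to 12.0 and 13.0 CPM in the TARDBP hairpin libraries, against 14.4 and 16.1 CPM with control hairpin 1 and 20.6 and 19.5 CPM with control hairpin 2 (log2 -0.49, adjusted p = 0.00781). POP7, a further shared subunit, had a log2 fold change of -0.56 (adjusted p = 0.0181). Neither was called against control hairpin 1 alone, with POP1 at -0.29 (adjusted p = 0.105) and POP7 at -0.21 (adjusted p = 0.390), and both were called against control hairpin 2 alone, at -0.68 and -0.92. Over the list, 2 rose and 0 fell against control hairpin 1, and 0 rose and 2 fell against control hairpin 2. Between control hairpin 2 and control hairpin 1, 5 of the 11 were called, all higher. Without TARDBP hairpin replicate 1, 0 of the 11 fell, without TARDBP hairpin replicate 2, 1 fell, and with the 4 control libraries pooled 0 rose and 0 fell.

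Of 8 genes tested for the signal recognition particle and its receptor, 0 rose and 1 fell, a lower share in either direction than over all features, with a median log2 fold change of -0.02. SRPRB, the membrane-anchored receptor subunit, fell to 20.8 and 21.7 CPM in the TARDBP hairpin libraries, against 27.2 and 30.0 CPM with control hairpin 1 and 38.3 and 42.5 CPM with control hairpin 2 (log2 -0.68, adjusted p = 0.000806). Its partner SRPRA, the receptor subunit that binds the particle, differed most between the controls, and is named after its values were seen. It stood at 66.1 and 69.3 CPM in the TARDBP hairpin libraries, above the 42.7 and 41.1 CPM of control hairpin 1 and below the 138 and 151 CPM of control hairpin 2. SRPRA was called in both comparisons, with log2 0.69 against control hairpin 1 and -1.09 against control hairpin 2. Pooling the 4 control libraries left 0 of the 8 called by edgeR, with SRPRB at -0.70 (adjusted p = 0.0711).

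Of 11 genes for 7SK-binding and P-TEFb proteins tested, 2 rose and 2 fell, a lower share in either direction than over all features, with a median log2 fold change of 0.15. MEPCE, which caps the 5′ end of 7SK, rose to 62.5 and 56.1 CPM in the TARDBP hairpin libraries, against 39.2 and 40.5 CPM with control hairpin 1 and 47.2 and 55.2 CPM with control hairpin 2 (log2 0.39, adjusted p = 0.00911). HEXIM2, an inhibitor of P-TEFb in the 7SK particle, rose to 6.47 and 5.61 CPM in the TARDBP hairpin libraries, against 4.18 and 4.21 CPM with control hairpin 1 and 3.16 and 4.0 CPM with control hairpin 2 (log2 0.64, adjusted p = 0.0120). Without TARDBP hairpin replicate 1, neither MEPCE (adjusted p = 0.0834) nor HEXIM2 (adjusted p = 0.0838) passed, and 0 of 11 rose. SRSF2, a splicing factor that also contacts the 7SK particle, fell to 70.1 and 86.2 CPM in the TARDBP hairpin libraries, against 94.0 and 98.6 CPM with control hairpin 1 and 173 and 169 CPM with control hairpin 2 (log2 -0.71, adjusted p = 0.000563). The call was lost with pooled controls (-0.77, adjusted p = 0.143). The controls differed in SRSF2 by log2 0.83 (control hairpin 2 over control hairpin 1, adjusted p = 0.000680). Of these 3 genes, MEPCE alone was called against control hairpin 1 (log2 0.57, adjusted p = 0.00360), where HEXIM2 had 0.52 (adjusted p = 0.0533) and SRSF2 -0.30 (adjusted p = 0.0548). HEXIM2 (0.75) and SRSF2 (-1.13) were called against control hairpin 2, and MEPCE was not (0.21, adjusted p = 0.141). The 7SK-stabilising protein gene LARP7 (log2 -0.07, adjusted p = 0.760) and the kinase gene CDK9 (log2 0.16, adjusted p = 0.163), both named after their values were seen, were not called. With the 4 control libraries pooled, 0 of the 11 rose and 1 fell.

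Of 13 genes for subunits of RNA polymerase III, the enzyme that transcribes the members, 8 fell and 3 rose against the mean of both controls, with a median log2 fold change of -0.34, where 24.3% of all features fell and 23.9% rose. POLR3D fell to 21.1 and 19.6 CPM in the TARDBP hairpin libraries, against 45.7 and 51.9 CPM with control hairpin 1 and 52.8 and 53.5 CPM with control hairpin 2 (log2 -1.32, adjusted p = 2.95e-05). POLR3A, the largest subunit, fell to 36.1 and 34.9 CPM in the TARDBP hairpin libraries, against 86.0 and 71.3 CPM with control hairpin 1 and 87.5 and 79.2 CPM with control hairpin 2 (log2 -1.19, adjusted p = 6.52e-05). POLR1D, shared with RNA polymerase I, had log2 -0.91 (adjusted p = 0.000125), and POLR3K -1.10 (adjusted p = 0.000291). POLR3K had log2 -0.55 against control hairpin 1 alone and -1.66 against control hairpin 2 alone. The controls themselves differed in POLR3K by log2 1.11 (control hairpin 2 over control hairpin 1).

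The 3 subunit genes that rose are named after their values were seen. POLR3G, which takes the place of POLR3GL in a second form of the enzyme, stood at 8.74 and 7.17 CPM in the TARDBP hairpin libraries, against 2.19 and 2.20 CPM with control hairpin 1 and 9.0 and 8.20 CPM with control hairpin 2. It was called against the mean of both controls (log2 0.87, adjusted p = 0.00180) and against control hairpin 1 (1.85, adjusted p = 0.000149), and not against control hairpin 2 (-0.11, adjusted p = 0.596). The control hairpins themselves differed, by log2 1.96 (control hairpin 2 over control hairpin 1, adjusted p = 0.000158). POLR3GL (log2 0.51, adjusted p = 0.00576) and POLR3F (log2 0.58, adjusted p = 0.00672) were called against each control. Against control hairpin 1 alone 5 of 13 subunit genes fell and 3 rose, and against control hairpin 2 alone 8 fell and 2 rose. Between control hairpin 2 and control hairpin 1, 6 were higher and 0 lower. With the 4 controls pooled as 1 group, 3 fell and 0 rose, and without TARDBP hairpin replicate 2, 5 fell and 2 rose.

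Of 20 genes for initiation factors, regulators and La, 6 fell and 4 rose, shares near those over all features, with a median of -0.18. GTF3A, the factor TFIIIA of the 5S ribosomal RNA genes, fell to 22.6 and 18.8 CPM in the TARDBP hairpin libraries, against 30.5 and 35.7 CPM with control hairpin 1 and 43.9 and 52.2 CPM with control hairpin 2 (log2 -0.95, adjusted p = 0.000542). SSB, the La protein that binds the ends of new polymerase III transcripts, had log2 -0.61 (adjusted p = 0.000830), and GTF3C5, a subunit of TFIIIC, -0.54 (adjusted p = 0.00115). SSB had log2 -0.31 against control hairpin 1 alone and -0.92 against control hairpin 2 alone. The controls themselves differed in SSB by log2 0.61 (control hairpin 2 over control hairpin 1). SNAPC3, a subunit of the SNAPc complex that RPPH1, RMRP and 7SK promoters use, rose to 50.9 and 57.8 CPM in the TARDBP hairpin libraries, against 43.1 and 42.6 CPM with control hairpin 1 and 36.8 and 38.2 CPM with control hairpin 2 (log2 0.44, adjusted p = 0.00333). The other 3 that rose, named after their values were seen, were SNAPC1 (log2 0.39), SNAPC2 (0.47) and GTF3C3 (0.37). SNAPC1 was not called against control hairpin 2 alone (0.16, adjusted p = 0.345), nor SNAPC2 (0.37, adjusted p = 0.122) or GTF3C3 (0.19, adjusted p = 0.200) against control hairpin 1 alone. Counts for this list went down to 3 fallen without TARDBP hairpin replicate 1, and to 2 risen without TARDBP hairpin replicate 2, without control hairpin 2 replicate 1 or without control hairpin 2 replicate 2. With the 4 controls pooled, 2 fell and 0 rose. MAF1, the repressor of polymerase III, was not called (log2 -0.22, adjusted p = 0.250), and is named after its values were seen.

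**Figure D5:**
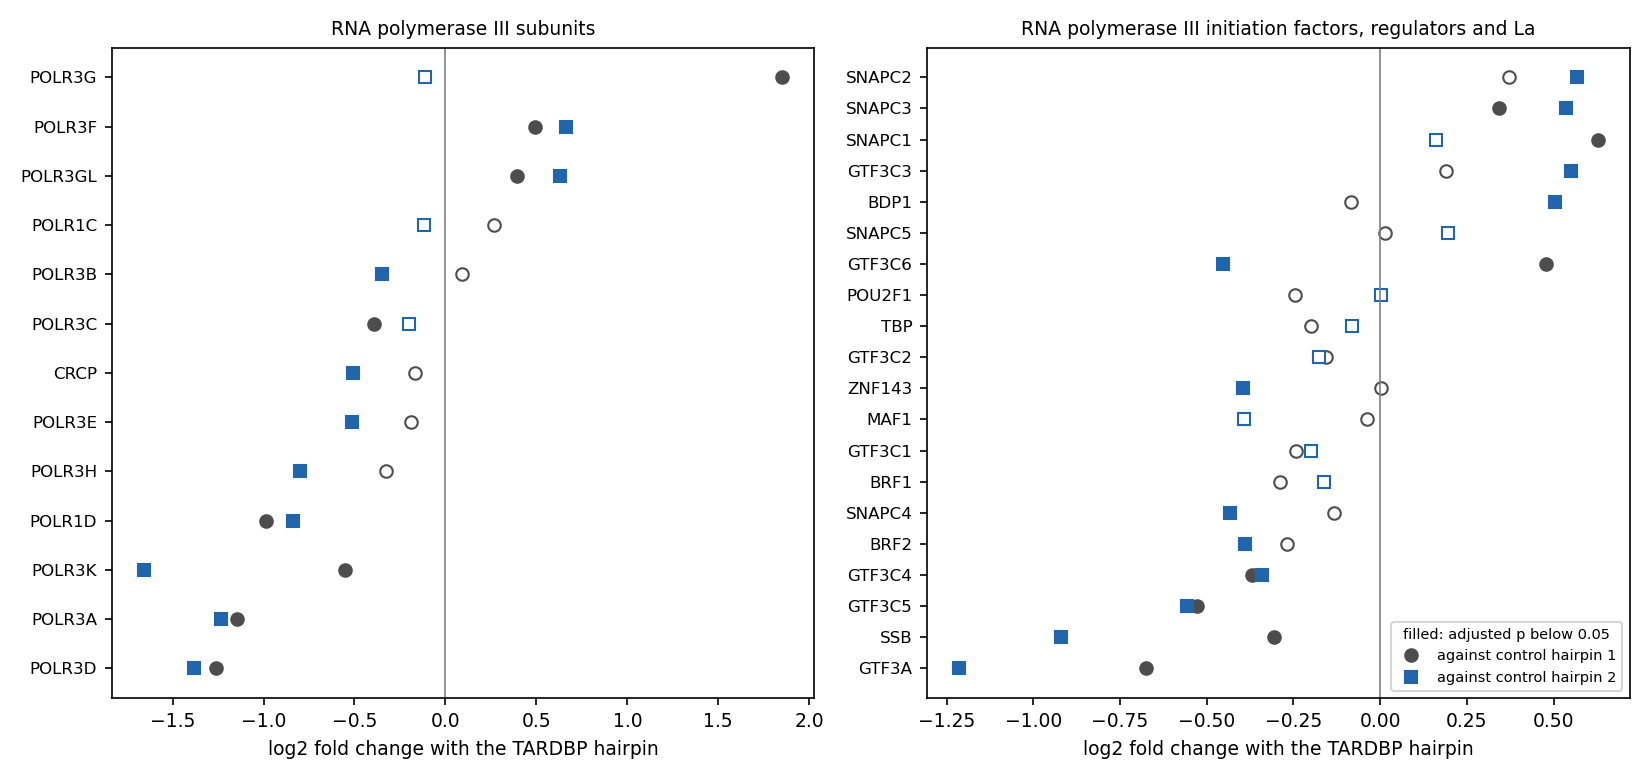
Log2 fold changes with the TARDBP hairpin against control hairpin 1 (circles) and control hairpin 2 (squares) for 13 polymerase III subunit genes and 20 factor genes, filled at an adjusted p below 0.05. POLR3D, POLR3A and POLR1D lie near or below -0.8 against both controls, while POLR3G lies at 1.85 against control hairpin 1 and -0.11 against control hairpin 2.

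Other small RNAs gave few counts, apart from the small Cajal body RNAs. Of 18 further polymerase III RNAs listed, 9 had a row and 3 passed the filter, and edgeR and DESeq2 each called 0 against the mean of both controls, with VTRNA1-3 alone below 0.05 without adjustment in edgeR. RNU6ATAC, the U6 RNA of the minor spliceosome, had log2 0.64 (adjusted p = 0.236), RNU6-2, a U6 gene, 0.41 (adjusted p = 0.210) and VTRNA1-3, a vault RNA, -1.08 (adjusted p = 0.0618). VTRNA1-3 had 9 and 4 counts in the TARDBP hairpin libraries, against 9 and 9 with control hairpin 1, and in control hairpin 2 libraries 21 and 25. It was called lower against control hairpin 2 alone (log2 -1.74, adjusted p = 0.00995) and 1 of the 3 was called lower against both controls without TARDBP hairpin replicate 1. Of the listed small nuclear and Cajal body RNAs made by RNA polymerase II, 9 passed the filter. Of these 9, 4 rose and 0 fell, where 23.9% of all features rose and 24.3% fell. Their median log2 fold change was 0.51. SCARNA10 stood at 313 and 204 CPM in the TARDBP hairpin libraries, against 148 and 196 CPM with control hairpin 1 and 106 and 159 CPM with control hairpin 2 (log2 0.77, adjusted p = 0.0141), close to the log2 fold change of RPPH1. SCARNA6 (log2 0.78), SCARNA7 (0.72) and SCARNA5 (0.72) also rose. The other 5 were not called, with SCARNA13 at 0.51, RNU12 at 0.36, SCARNA2 at 0.31, RNU11 at -0.09 and RNU4ATAC at -0.40. The controls themselves differed in SCARNA6 (log2 -0.64, control hairpin 2 over control hairpin 1), SCARNA5 (-0.61) and SCARNA7 (-0.58). All 3 were called lower in that comparison, and SCARNA10 was not called (-0.38, adjusted p = 0.240, edgeR). When only control hairpin 1 was the comparison, edgeR called 0 of these 9, with 4 below 0.05 without adjustment, and against control hairpin 2 alone 4 rose. With the 4 control libraries pooled 0 of the 9 rose, and SCARNA10 missed the threshold without TARDBP hairpin replicate 1 (log2 0.43, adjusted p = 0.158) and with DESeq2 (0.75, adjusted p = 0.0573). Of 5 repeat families listed, 7SK was the 1 called, and the free Alu monomer families, which descend from 7SL, had log2 fold changes of 0.09 (FLAM_A), 0.12 (FLAM_C), 0.09 (FAM) and 0.13 (FRAM). The listed nuclear ribosomal RNA symbols are not analysed here.

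As part of library composition, the 3 members took 4.86 and 3.15% of all counts in the TARDBP hairpin libraries, against 2.5 and 3.48% with control hairpin 1, and in control hairpin 2 libraries 2.92 and 4.23%. Wilson 95% intervals were within 0.01 percentage points of each share and cover counting error only. The groups overlapped, and the means of 4.01% with the TARDBP hairpin and 3.28% over both control groups differed by less than the spread between replicates (exact two-sided permutation p = 0.4). Without TARDBP hairpin replicate 1 the difference turned to -0.13 percentage points. With the 7SK family the share was 9.24 and 6.07% in the TARDBP hairpin libraries, against 4.62 and 6.17% with control hairpin 1, and in control hairpin 2 libraries 4.69 and 6.81%.

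Calls changed little when these RNAs were left out of the scaling. TMM factors were 0.950 and 0.999 in the TARDBP hairpin libraries, 1.03 in both libraries of control hairpin 1, and 1.02 and 0.979 with control hairpin 2. Computed with the members and 7SK left out of totals and factors, they were 0.988 and 1.01, 1.00 and 1.02, and 0.995 and 0.978 in the same order. The 2 sets of factors multiply different library totals, so their values cannot be compared directly. Against the mean of both controls, 8196 features were then called in place of 8269, with 8014 called both ways, and the median log2 fold change moved by -0.02.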

How the data were processed

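The counts were deposited as raw read counts, 1 table per library, whole numbers for each gene symbol and repeat family. Per the submitters' processing notes, reads were handled with bcl2fastq and STAR 2.5.2b on build hg19. The counting program and its treatment of strand and of multiply matching reads are unknown, being not given in the sources used here. No coordinates are printed, since the reference used here for sequences (GENCODE release 29) has another build.

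The members, lists and tests were chosen with earlier results of these data known. Of 28953 rows, 17163 passed filterByExpr by hairpin (minimum count 10, minimum total 15). In R 4.3.3, edgeR 4.0.16 fitted a quasi-likelihood model with 3 groups to all 6 libraries after TMM scaling, with 3 residual degrees of freedom, with Benjamini-Hochberg adjustment over all rows tested. Rows with an adjusted p below 0.05 were called, and only these are said to have risen or fallen. A standard error is the absolute log2 fold change divided by the root of F. DESeq2 1.42.0, other scalings, filters, a replicate block and leaving out each library were alternatives. Exact permutation tests over libraries were two-sided, from the authors' deposited counts. In a test on simulated data over 16893 rows with 200 changed, 66.7% of 1.5-fold and 83% of 2-fold changes were recovered, and 12 of 161 calls were of unchanged rows. The simulated spread followed the trend over all rows, and in the data far more rows were called (48.2%). The members had a biological coefficient of variation of 16.7 to 20.2%, where the median was 10.1%, so these rates may not hold for them.

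Named were the members, TARDBP, up to 4 called members of each list by p (all where 5 or fewer were called), all listed RNAs that passed the filter and the 3 features nearest to each member. RefSeq classes matched 15115 gene rows and not 1087. The promoter table held 0 of the members, so no motif was searched. The values of 1 called gene of the 7SK list and the 7SL sequences are not reported here.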

Additional observations from a re-analysis of the deposited data

How the results depend on the processing

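Log2 fold changes are given unless stated. RPPH1 stayed above 0 in every alternative with the TARDBP hairpin. Against the mean of both controls its call was lost with genes alone (0.81), pooled controls (0.78) and DESeq2 (0.76), and values ran from 0.35 to 1.11 with each library left out. Against control hairpin 1 it passed with upper-quartile factors (0.87) and library totals alone (0.68), and ran from 0.33 to 1.09 with a library left out. Against control hairpin 2 it was lost with genes alone (0.85), the replicate block (0.82, adjusted p = 0.0573 by edgeR) and DESeq2 (0.78), and ran from 0.37 to 1.13. Between the controls it ran from -0.38 to 0.24 and 7SK from -0.43 to 0.16.

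RMRP, near 0, changed sign often and was not called under any alternative given for it here. Against the mean of both controls it was 0.12 with upper-quartile factors, 0.0217 with genes alone and 0.0237 with the replicate block, and -0.26 to 0.21 with a library left out. Against control hairpin 1 it was -0.0084 with DESeq2 size factors, -0.0749 with totals alone, -0.0144 with factors computed without the members, -0.0193 with no filter, -0.0234 with DESeq2, and -0.25 to 0.25. Against control hairpin 2 it was 0.13, 0.0242 and 0.0129 with upper-quartile factors, genes alone and the replicate block, and -0.27 to 0.24. Between the controls it was -0.0241 with upper-quartile factors, -0.0189 with totals alone and -0.0050 with genes alone, and -0.26 to 0.27. RN7SL3 ran from -0.22 to 0.50 against the mean of both controls, and from -0.51 to 0.20 against control hairpin 2, where upper-quartile factors gave 0.0394.

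The count of members called became 0 against the mean of both controls with genes alone, pooled controls and DESeq2. Features called in these settings numbered 7863, 2572 and 6962, in place of 8269. Against control hairpin 1 the count of members became 1 with upper-quartile factors and with totals alone. These settings called 7654 and 7158 features, in place of 7364. Against control hairpin 2 the count of members became 0 with genes alone, the replicate block and DESeq2. Features called there numbered 8030, 7973 and 7233, in place of 8618. Over all features, pooled controls gave 2572 calls in place of 8269, and control hairpin 2 against control hairpin 1 gave 4328 to 7344 calls with a library left out. The difference in the members' share of counts ran from -0.13 to 1.57 percentage points. The cause of these changes was not tested.

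Deviations from the group means, across features, correlated at r of -0.228 and -0.247 between same-numbered libraries of the TARDBP hairpin and control hairpins 1 and 2, and at 0.232 between those of the controls. Same-numbered control libraries thus deviated together and TARDBP hairpin libraries the opposite way, which could come from crossed numbers. No label ties the numbers to a shared culture or day, so they were not taken as pairs. The replicate block gave 7643 calls against the mean of both controls. With the TARDBP hairpin's numbers crossed, chosen after seeing the data, 10266 of 17163 features were called there. Against control hairpin 1 alone 9408 features were called, and against control hairpin 2 alone 10537. In each of these comparisons with the TARDBP hairpin, 2 of 3 members were called. The crossed numbers follow the members' own order of replicates, so the block takes out their replicate gaps. No result is therefore drawn from these calls. Summing the 3 RN7SL rows was not run, since 1 of them has a row. With 2 libraries per hairpin and gaps of up to 1.69-fold between them for the members, small differences cannot be told from the spread between replicates. The part of depth in these results was not tested.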
